A study of Mus musculus with 20 samples.

Results

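Day 1 aggregates of the mouse line BP14A (clone #3-3), which carries inducible transgenes for 3 transcription factors, Blimp1, Prdm14 and Tfap2c, were set against day 1 aggregates of the line P14 (clone #7-109), which carries the Prdm14 transgene alone. The comparison asks what Blimp1 and Tfap2c add to Prdm14. It rests on 4 of the 20 arrays of the series, the 2 arrays of each line on day 1, chosen by their sample titles. The BP14A cells hold 3 tetO-driven piggyBac transgenes, Avi-Blimp1, 3xFLAG-Prdm14 and V5-Tfap2c, each followed by an IRES and beta geo. The P14 cells hold 3xFLAG-Prdm14 in the same kind of vector. Both are male C57BL/6;129 cells that also carry Blimp1-mVenus, stella-ECFP and Rosa26-rtTA, the doxycycline-dependent activator that the parental line has too. Lines with Avi-Blimp1 alone (B, clone #2-4) or V5-Tfap2c alone (A, clone #8-2) and the parental line serve below as further references. Embryonic stem cells were kept in 2i and LIF without feeders and turned for 36 h into epiblast-like cells (EpiLCs), which resemble the epiblast shortly after implantation. The EpiLCs were then aggregated for 24 h in GK15 medium with 1.5 μg/ml doxycycline, and whole aggregates were harvested as day 1. Every line is a single clone, so transgenes and clone cannot be told apart, and day 1 aggregates of these lines without doxycycline were not among the samples. The 2 arrays of each group are biological duplicates, per the series text.

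Primordial germ cells, the precursors of sperm and eggs, arise from the epiblast when its cells receive BMP signals. Blimp1 (the protein of the gene Prdm1) is known there as a repressor of somatic genes, Prdm14 as a factor that brings back naive pluripotency and lowers DNA methylation, and AP2γ (the protein of Tfap2c) as a partner of both that is needed for the fate. Early germ cells switch on genes such as Dppa3 (also called stella), regain part of the naive pluripotency network, and lose genes of the primed epiblast such as Otx2, Pou3f1 and the DNA methyltransferase Dnmt3b.

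RNA was measured on 1-colour microarrays, deposited as 1 value per probe set on a log2 scale, on which a difference of 1 is a 2-fold ratio. Medians of the 4 arrays lay between 4.59 and 4.81, and replicate arrays correlated over the genes tested at Pearson r of 0.9896 (BP14A) and 0.99 (P14), against 0.9834 to 0.9863 between the lines, across genes that are not independent replicates. Genes of the pluripotent epiblast were present in both lines, with 9 of 9 markers above the filter level of 3.95. Their summed log2 values were 93.39 and 93.94 in BP14A against 97.89 and 98.07 in P14, and 3 of the 9, Otx2, Pou3f1 and Dnmt3b, were called lower in BP14A by the test given below. Of 8 fibroblast or feeder markers, 4 (BP14A) and 5 (P14) were above that level, and their summed log2 values were 29.72 and 30.03 in BP14A against 32.18 and 32.57 in P14. The sums over 7 endoderm markers were 25.65 to 26.38 in BP14A and 24.05 to 24.54 in P14, and those over 5 trophoblast markers 20.59 to 20.78 in BP14A and 18.55 to 18.94 in P14. No marker was listed at 0 in its group mean, and the part of these other cell types in the results was not tested. Of 6 Y-linked genes above the filter level, 3 had a mean at least 1 lower in P14 than in BP14A on day 1 and 3 in EpiLCs. Y-linked genes stay out of everything else but a check of the processing in which they were kept. Arrays of whole aggregates cannot separate fewer cells of a type from less RNA per cell. Having 2 arrays for each group limits how precise the values are.

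Genes were called where the limma p, adjusted by Benjamini-Hochberg over 14004 genes, was under 0.05 and the log2 difference was at least 1 in size. By this rule 65 genes rose (0.464% of those tested) and 78 fell (0.557%) in BP14A relative to P14, and 2671 genes had an unadjusted p under 0.05. The median difference over all genes was 0.03. Among the called genes the median size was 1.35 for those that rose, up to 4.00, and 1.32 for those that fell, up to 2.94. A size of at least 2 was reached by 9 that rose and 5 that fell. The count that rose was 35 when the second BP14A array was left out. A limma fit of the 4 arrays alone, with 2 residual degrees of freedom, called 0 genes, while 2124 had an unadjusted p under 0.05. Among them were 142 of the 143 called with all arrays. That overlap is no separate support, because the 143 were chosen by the same differences on the same 4 arrays.

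**Figure D1:**
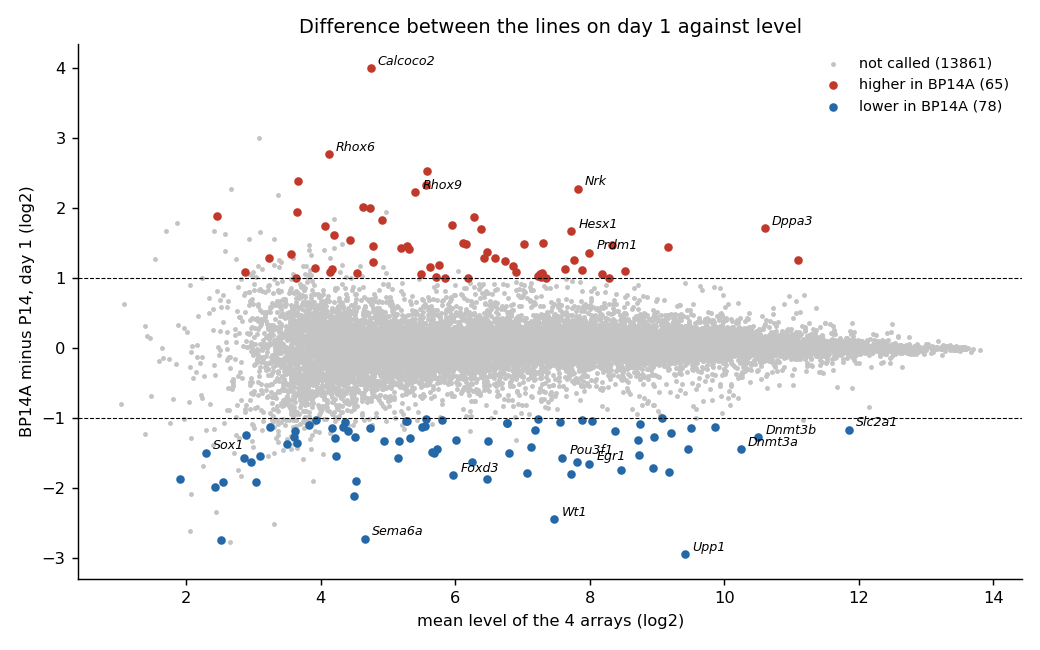
Log2 difference between BP14A and P14 on day 1 (vertical axis) against the mean log2 level of the 4 arrays (horizontal axis) for each gene tested, with dashed lines at the size limit of 1. Red points are the 65 genes higher and blue points the 78 genes lower in BP14A, spread over dim and bright genes alike, with Calcoco2 at 4.00 and Upp1 at -2.94 at the ends.

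The 3 factors themselves were read first. Prdm1, which encodes Blimp1, stood at 8.63 and 8.71 on the BP14A arrays and at 7.23 and 7.39 on the P14 arrays, with no overlap. It rose by 1.36 (SE 0.13, limma adjusted p = 0.000102). The B line, with the Blimp1 transgene alone, had 6.25 and 6.47, and the parental line 4.90 and 5.01. Tfap2c was at 11.55 and 11.58 in BP14A and at 10.70 and 10.91 in P14, and its difference of 0.76 (SE 0.13, limma adjusted p = 0.00453) was under the size limit. Its other probe sets differed by 1.07 and 0.92. Tfap2c was already high in P14 and in B, where it was at 9.38 and 9.81, although neither line has a Tfap2c transgene. It was at 5.80 and 6.08 in the A line, which has one, against 6.38 and 6.29 in the parental line. Prdm14, carried by both lines, was dim, at 3.40 and 4.67 in BP14A and 3.21 and 3.80 in P14. Its difference of 0.53 (SE 1.15, limma adjusted p = 0.866) did not pass, and without the second BP14A array it was -0.11. The sources used here do not say whether these probe sets read the transgenes as well as the cells' own genes, so the levels check neither the labels nor the induction.

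Of the 18 early germ cell genes tested, 3 rose (16.7%) and 0 fell in BP14A, and the list's median difference was 0.33, against 0.03 over all genes. For this list and those below, the shares over all genes tested were 0.464% that rose and 0.557% that fell. List members were chosen with earlier results of these data known, so the counts and medians of the lists are descriptions. Dppa3, which encodes the stella protein that protects methylation marks in the early embryo and marks germ cell precursors, was at 11.41 and 11.51 in BP14A against 9.67 and 9.82 in P14. It rose by 1.72 (SE 0.28, limma adjusted p = 0.00323). The line order of its means ran from BP14A over P14 and B, at 8.31 and 9.25, to the parental line at 6.23 and 5.97, and the A line, at 5.61 and 6.44, overlapped with the parental one. The other 2 were reproductive homeobox genes on the X chromosome. Rhox9 was at 6.13 and 6.90 in BP14A and at 4.56 and 4.01 in P14, a difference of 2.23 (SE 0.36, limma adjusted p = 0.00316). Rhox6 was at 5.01 and 5.99 in BP14A and, below the filter level, at 2.16 and 3.30 in P14, a difference of 2.77 (SE 0.69, limma adjusted p = 0.0348). The Rhox6 call was lost with any of the 4 arrays left out, at limma adjusted p of 0.0558 to 0.229. The integrin gene Itgb3 differed by 1.02 (limma adjusted p = 0.313) and did not pass. Of the 19 genes of later germ cells and meiosis, 0 were called, and their median was -0.18. The synaptonemal complex gene Sycp3 differed by -0.68 and the piRNA pathway gene Tdrd5 by 0.61.

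Naive pluripotency genes gave 2 called of 19 tested, both higher in BP14A, with a median of 0.14. Besides Dppa3, which stands on both lists, this was Tfcp2l1, a transcription factor of the naive network. It was at 8.20 and 8.20 in BP14A, at 7.01 and 7.11 in P14, at 6.00 and 6.56 in B and at 3.93 and 4.55 in the parental line. The Tfcp2l1 difference of 1.14 (SE 0.28, limma adjusted p = 0.0329) lost its call with any of the 4 arrays left out, at adjusted p of 0.113 to 0.147, although the arrays of the lines did not overlap. Klf4 differed by -0.98 (limma adjusted p = 0.351) and Nr0b1 by -0.71 (limma adjusted p = 0.0289). Of 15 core pluripotency genes 0 were called, and their median was 0.00. The TGF-beta family ligand Gdf3 differed by 0.87, Fgf4 by -0.62 and the Nodal co-receptor Tdgf1 by -0.56, each under the size limit.

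Of 19 genes of the primed epiblast tested, 5 fell in BP14A (26.3%, against 0.557% of all genes tested), 0 rose and 14 were not called. The median was -0.54 and the highest difference 0.86, as descriptions of a list chosen with earlier results of these data known. Foxd3, a forkhead factor of the epiblast and neural crest, was at 5.10 and 5.03 in BP14A and at 6.87 and 6.89 in P14. It fell by 1.81 (SE 0.11, limma adjusted p = 5.91e-06), and stood at 8.01 and 8.13 in the parental line. Pou3f1, known as Oct6, was at 6.96 and 6.65 in BP14A against 8.43 and 8.31 in P14 and 11.59 and 11.77 in the parental line. Its difference between BP14A and P14 was -1.56 (SE 0.11, limma adjusted p = 1.15e-05). Otx2, a homeobox gene that holds back germ cell fate in mouse epiblast cells, was at 8.92 and 8.94 in BP14A and at 10.18 and 9.96 in P14, a difference of -1.14 (SE 0.12, limma adjusted p = 0.000196). For Foxd3, Pou3f1 and Otx2 the means stepped down in the order parental line, P14, BP14A.

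Tcf15, a bHLH gene of the primed state, did not follow that order. It was at 8.86 and 8.61 in BP14A and at 10.24 and 10.12 in P14, while the parental line had 6.20 and 6.53. It fell by 1.45 between BP14A and P14 (SE 0.13, limma adjusted p = 8.96e-05), and both lines were above the parental line, by 2.37 (BP14A) and 3.81 (P14). These 2 differences share the parental arrays.

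Both methyltransferases that set new DNA methylation fell, out of 14 DNA methylation genes tested. Dnmt3b was at 10.08 and 9.66 in BP14A, at 11.19 and 11.09 in P14 and at 13.18 and 13.24 in the parental line, and the difference between BP14A and P14 was -1.27 (SE 0.10, limma adjusted p = 3.11e-05). Dnmt3a was at 9.59 and 9.45 in BP14A and at 11.36 and 10.57 in P14, a difference of -1.44 (SE 0.26, limma adjusted p = 0.00639). In the parental line Dnmt3a was at 11.06 and 10.52, level with P14. The Dnmt3a call was lost without the second BP14A array (limma adjusted p = 0.0568), without the first P14 array (0.0597), and when its probe sets were averaged, which gave -0.93. The list's median was 0.03. Uhrf1, which guides the copying of methylation at replication, differed by -0.37 and Tet2, an oxidase of methylcytosine, by -0.39, both under the size limit. Of 19 histone modifiers 0 were called, with a range of -0.48 to 0.26.

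**Figure D2:**
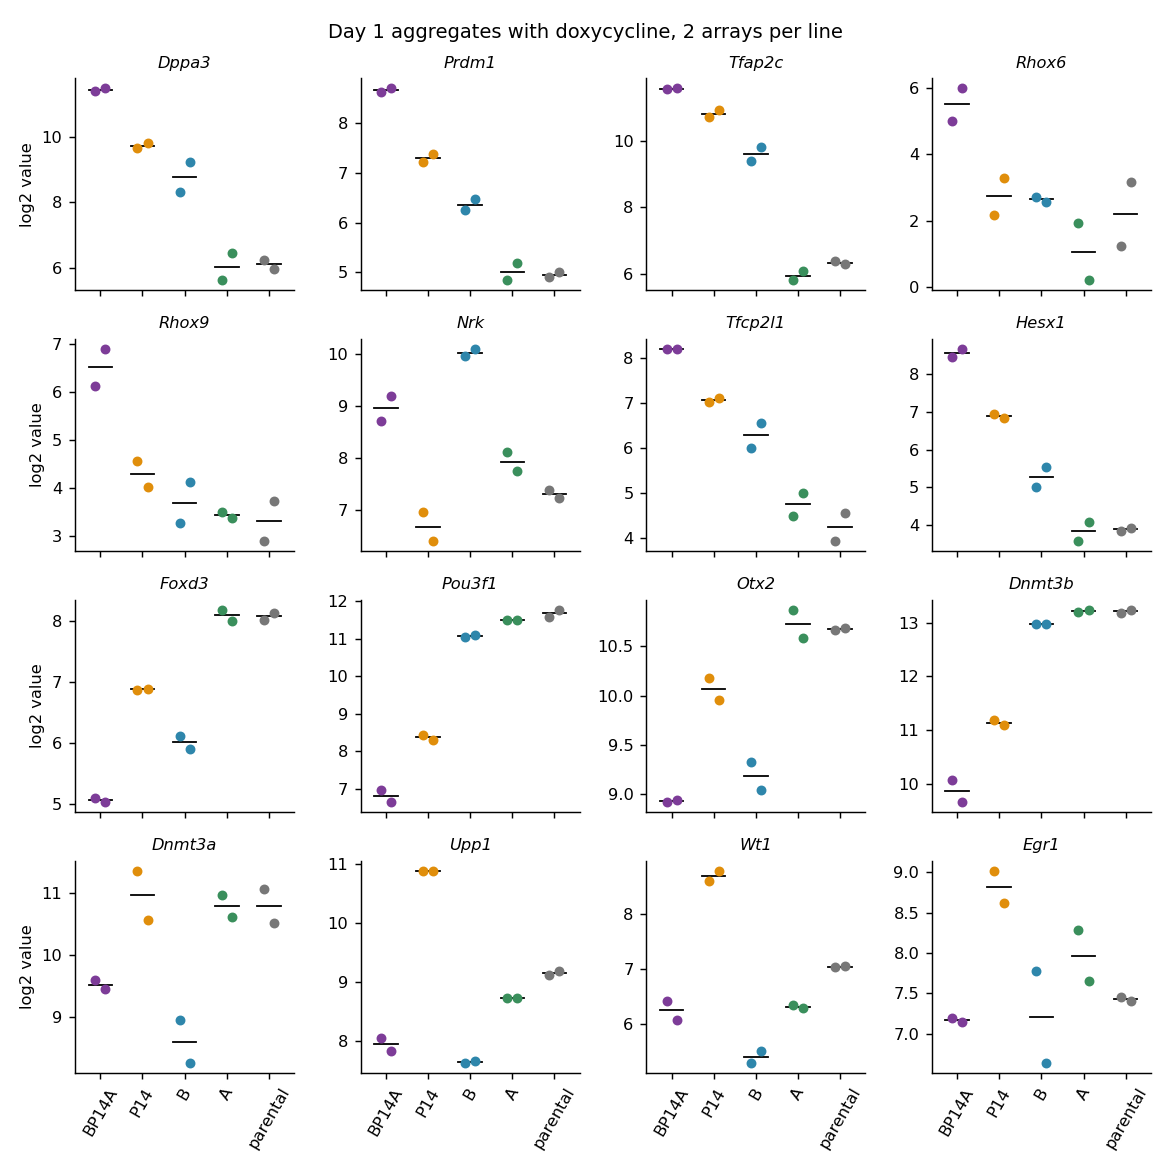
Log2 value on each array (points) and group mean (bars) on day 1 with doxycycline for 16 genes, by line from BP14A on the left to the parental line on the right; the vertical axes differ between panels and do not start at 0. The BP14A and P14 arrays do not overlap in any of the 16 panels, and P14 lies between BP14A and the parental line for Dppa3, Prdm1, Hesx1, Foxd3, Pou3f1 and Dnmt3b but not for Nrk, Upp1, Wt1 or Egr1.

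Among 15 neural genes, 1 rose and 3 fell, with a median of -0.32. Hesx1, a homeobox repressor of the anterior neural plate that naive cells also express, was at 8.45 and 8.66 in BP14A against 6.94 and 6.83 in P14, and rose by 1.67 (SE 0.22, limma adjusted p = 0.000943). Sox1, a marker of neural progenitors, was at 1.35 and 1.73 in BP14A and at 3.20 and 2.86 in P14, so both lines were below the filter level, and it was at 5.44 and 5.68 in the parental line. Its difference between BP14A and P14 was -1.49 (SE 0.24, limma adjusted p = 0.00339). Irx3 fell by 1.11 (SE 0.13, limma adjusted p = 0.000512), with 4.89 and 5.09 in BP14A against 6.12 and 6.09 in P14. Gbx2, a homeobox gene of the midbrain boundary that is also active in pluripotent cells, differed by -1.18 (SE 0.20, limma adjusted p = 0.00458). Without the first BP14A array the Gbx2 difference was -0.99, just under the size limit. The summed values of the 4 neural markers measured, Sox1 among them, were 17.77 and 18.50 in BP14A against 20.04 and 20.25 in P14.

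Other lineages gave no calls by limma. Of 17 primitive streak and mesoderm genes 0 passed (median -0.04, from Mixl1 at -1.06 with adjusted p = 0.534 to Rspo3 at 0.98 with adjusted p = 0.0305). The counts were likewise 0 for 12 endoderm genes (median 0.00), 16 trophectoderm and surface ectoderm genes (median 0.08), 8 Hox genes (median 0.03) and 3 genes of the 2-cell-like state (median 0.04). Over all genes 2671 had an unadjusted p under 0.05, and the lists' lowest and highest differences were -1.06 and 1.11.

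Of the signalling lists, that of FGF and ERK held 2 called genes of 22, both lower in BP14A. Fgf15, an FGF ligand of the epiblast, fell by 1.50 (SE 0.16, limma adjusted p = 0.000206), with 6.18 and 5.93 in BP14A against 7.57 and 7.54 in P14. Egr1, an immediate early gene downstream of ERK, was at 7.19 and 7.15 in BP14A against 9.02 and 8.62 in P14, a difference of -1.65 (SE 0.30, limma adjusted p = 0.00617), and 7.45 and 7.41 in the parental line. Its call was lost without the first P14 array (limma adjusted p = 0.0607). The other 20 FGF and ERK genes did not pass, and the list's median was -0.03. Of 18 Notch pathway genes, the target Hey1 alone was called; it was at 6.83 and 6.97 in BP14A against 5.36 and 5.47 in P14, a difference of 1.49 (SE 0.25, limma adjusted p = 0.00393). Of 15 retinoic acid genes, the retinoic acid carrier Crabp2 fell by 1.63 (SE 0.14, limma adjusted p = 6.17e-05) and the receptor Rarg differed by -0.90, under the size limit. Of 19 BMP genes, 15 Nodal genes, 21 WNT genes, 15 LIF and JAK-STAT genes and 11 Myc network genes 0 passed, with medians of 0.08, 0.11, -0.04, 0.18 and -0.06. The largest difference among the BMP genes was that of the ligand gene Bmp8b at -1.04, which was not called, and the highest was 0.73. The BMP target Id3 differed by 0.69 and Myc by -0.53, both under the size limit.

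Adhesion and migration lists held a few called genes. The atypical chemokine receptor Ackr3, which removes the ligand that guides migrating germ cells, was at 7.00 and 7.32 in BP14A against 5.75 and 5.83 in P14, and rose by 1.37 (SE 0.19, limma adjusted p = 0.00133). The guidance molecule Sema6a was at 3.54 and 3.04 in BP14A, below the filter level, against 6.02 and 6.00 in P14, and fell by 2.72 (SE 0.16, limma adjusted p = 3.26e-06). The 3 Sema6a probe sets did not have the same sign, with a range of -2.72 to 0.54, and their mean difference of -0.84 was under the size limit. Pcdh8, a protocadherin of the gastrulating embryo, was low in both lines, at 2.43 and 2.10 in BP14A and 3.64 and 3.37 in P14 against 6.84 and 7.09 in the parental line. Its difference of -1.24 (SE 0.18, limma adjusted p = 0.00143) was likewise that of 1 of its 2 probe sets, the other being at 0.16, and their mean did not pass (limma adjusted p = 0.178). Of 19 adhesion genes and 18 genes of the epithelial to mesenchymal transition 0 were called. Of 9 fibroblast genes Dcn, the matrix proteoglycan decorin, fell by 1.79 (SE 0.18, limma adjusted p = 0.000196), with 6.17 and 6.19 in BP14A against 8.08 and 7.85 in P14, and this gene is 1 of the 8 feeder markers whose sums are given above.

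Cell cycle genes did not pass (0 of 27, median 0.00), nor did those of cholesterol and fatty acid synthesis (0 of 20, range -0.18 to 0.32). Of 25 genes of p53, stress and apoptosis, Gadd45g, a growth arrest gene, fell by 1.41 (SE 0.24, limma adjusted p = 0.00501), a call that without the second BP14A array stood at an adjusted p of 0.0502. Of 23 hypoxia and glycolysis genes, the glucose transporter Slc2a1 was at 11.29 and 11.24 in BP14A against 12.37 and 12.49 in P14, and fell by 1.17 (SE 0.09, limma adjusted p = 3.11e-05). Slc2a1 in P14 was near the parental arrays, at 12.51 and 12.62. Of 21 imprinted genes, Zdbf2, a paternally expressed gene, was at 8.06 and 8.54 in BP14A against 10.02 and 10.11 in P14, and fell by 1.77 (SE 0.19, limma adjusted p = 0.000311). In the parental line Zdbf2 was at 8.44 and 8.45, close to BP14A. In EpiLCs, before doxycycline, the Zdbf2 mean was 7.95 in BP14A, 8.795 in P14 and 7.925 in the parental line. That difference of -0.845 between BP14A and P14 did not pass (limma adjusted p = 0.241). Its change of -0.92 from EpiLCs to day 1 was not called either (limma adjusted p = 0.117). Over the 32 lists, 479 different genes were tested, 8 rose and 18 fell, where 0.464% of all genes tested rose and 0.557% fell.

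**Figure D3:**
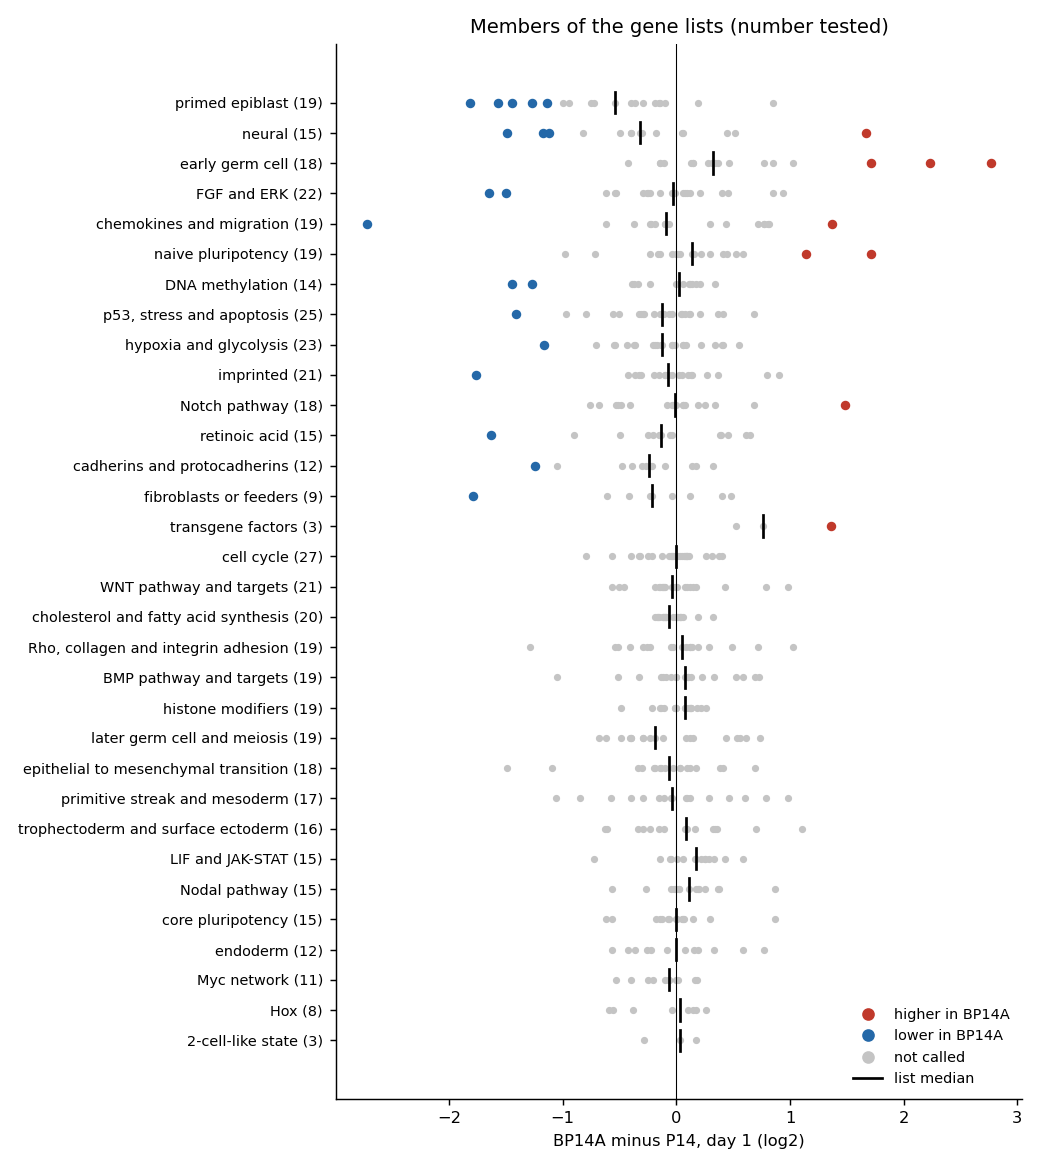
Log2 difference between BP14A and P14 on day 1 (horizontal axis) for every tested member of the 32 gene lists, with the number tested beside each name; red points rose, blue points fell, grey points did not pass, and the bar is the list median. The primed epiblast list holds 5 genes that fell and the early germ cell list 3 that rose, while 17 lists hold no called gene.

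The largest differences lay mostly outside the lists. Calcoco2, an autophagy receptor gene, was at 6.61 and 6.87 in BP14A against 1.84 and 3.64 in P14, below the filter level, and rose by 4.00 (SE 0.60, limma adjusted p = 0.00203). It was also low in B, at 2.57 and 2.94, and in the parental line, at 4.22 and 3.67, so that BP14A stood apart from the other lines on day 1. Adgrg6, an adhesion G protein-coupled receptor, was at 6.59 and 7.10 in BP14A against 4.40 and 4.23 in P14, and rose by 2.53 (SE 0.39, limma adjusted p = 0.00238). Slco4c1, an organic anion transporter, rose by 2.34 (SE 0.33, limma adjusted p = 0.00122). Msc, a bHLH repressor, was at 6.68 and 6.97 in BP14A against 5.33 and 4.81 in P14 and 3.68 and 3.31 in the parental line. Msc rose by 1.75 (SE 0.30, limma adjusted p = 0.00441), but without the second P14 array its adjusted p was 0.0507.

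Some genes that rose had been lower in P14 than in the parental line. Efemp1, a fibulin of the extracellular matrix, was at 5.70 and 5.57 in BP14A, at 3.53 and 3.70 in P14 and at 7.64 and 7.50 in the parental line, and rose by 2.02 between BP14A and P14 (SE 0.15, limma adjusted p = 1.87e-05). Kctd12b was at 6.96 and 7.47 in BP14A, 5.30 and 5.37 in P14 and 6.36 and 6.63 in the parental line, a difference of 1.88 between BP14A and P14 (SE 0.25, limma adjusted p = 0.00091). Pof1b, an actin-binding gene, rose by 2.00 (SE 0.23, limma adjusted p = 0.000372), with P14 0.41 above the parental line, a difference that was not called. Among the rest of the 15 largest, Glis3, Gpha2, Gabrd and Gpr4 differed by 1.75 to 1.94 with P14 arrays near or below the filter level. For Gabrd the BP14A arrays, at 3.42 and 3.37, were below it too. Each of these genes lost its call with 3 or more of the 4 arrays left out in turn.

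The largest fall was that of Upp1, uridine phosphorylase, which splits uridine for salvage. It was at 8.05 and 7.83 in BP14A against 10.89 and 10.88 in P14, and fell by 2.94 (SE 0.22, limma adjusted p = 1.87e-05). The parental arrays, at 9.11 and 9.18, lay between the lines. Wt1, a zinc finger gene of the gonad and kidney, was at 6.42 and 6.08 in BP14A against 8.60 and 8.78 in P14 and 7.03 and 7.06 in the parental line. It fell by 2.44 (SE 0.13, limma adjusted p = 3.26e-06). Zc3h12a, an RNase that degrades inflammatory mRNAs, was at 3.27 and 3.59 in BP14A against 5.38 and 5.71 in P14 and 5.53 and 6.01 in the parental line, a difference of -2.12 (SE 0.26, limma adjusted p = 0.000601). The mean of the Zc3h12a probe sets did not pass (limma adjusted p = 0.136). The receptor-modifying protein gene Ramp2 fell by 1.87 (SE 0.13, limma adjusted p = 1.44e-05), the RhoG exchange factor gene Arhgef26 by 1.80 (SE 0.23, limma adjusted p = 0.000742), the transcription factor gene Myrf by 1.75 (SE 0.09, limma adjusted p = 3.26e-06) and Ugdh, which makes UDP-glucuronic acid for matrix sugars, by 1.71 (SE 0.16, limma adjusted p = 8.99e-05). Mybpc2, Bicdl2 and Zbtb42 fell by 1.98, 1.89 and 1.87, with BP14A means below the filter level. For Mybpc2 and Zbtb42 the P14 means, 3.42 and 2.84, were below it too. The calls of Bicdl2 and Zbtb42 were lost without the second P14 array.

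Against the parental line on day 1, BP14A had 388 genes higher (2.77%) and 538 lower (3.84%), and P14 had 305 higher (2.18%) and 445 lower (3.18%), by the same rule and with shared parental arrays. Placed by their means, the 65 genes higher in BP14A than in P14 fell into 32 with P14 between the parental line and BP14A, 9 with BP14A between P14 and the parental line, and 24 with the parental line between the other lines. For the 78 lower genes these numbers were 44, 5 and 29. Of the 65, 17 had a P14 mean below the filter level and 3 a BP14A mean below it. Of the 78, 27 had such a BP14A mean and 10 such a P14 mean. The sizes of these genes are approximate.

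Before doxycycline the same clones differed by 1 called gene. Itgb8, an integrin subunit, was higher in BP14A EpiLCs than in P14 EpiLCs by 1.46 (SE 0.19, limma adjusted p = 0.0144, 0.00714% of genes tested), and 0 genes were lower by limma, with 1192 at an unadjusted p under 0.05. Without any 1 of 3 of the 4 EpiLC arrays the count higher was 0. The genes that rose on day 1 had a median EpiLC difference of 0.06 and those that fell one of 0.02. The interaction term, which tests whether the difference between the clones on day 1 departs from that in EpiLCs, was called higher for 49 genes (0.35%) and lower for 74 (0.528%). The same direction was called for 31 of the 65 that rose and 50 of the 78 that fell. These counts share the day 1 arrays with the comparison itself. The count higher was 18 without the second BP14A day 1 array and 25 without the first P14 EpiLC array, and the count lower was 47 without the second BP14A EpiLC array.

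For Egfl6, Zbtb42 and some other named genes the EpiLC values also lay apart, without being called. Egfl6, a secreted EGF-like protein gene on the X chromosome, was at 5.06 and 4.75 in BP14A EpiLCs against 2.59 and 3.42 in P14 EpiLCs, a difference of 1.90 that did not pass (limma adjusted p = 0.144), and 2.39 on day 1 (SE 0.39, limma adjusted p = 0.00331). Its P14 arrays on day 1 were both at 2.47, below the filter level. Zbtb42 had an EpiLC difference of 1.83, of opposite sign to day 1, that did not pass either (limma adjusted p = 0.11), with all arrays of both lines at both stages below the filter level, and an interaction of -3.70. For Nrk, Dppa3, Foxd3, Pou3f1 and Dnmt3b the EpiLC differences lay between -0.02 and 0.30 and the interaction was called in the direction of day 1.

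**Figure D4:**
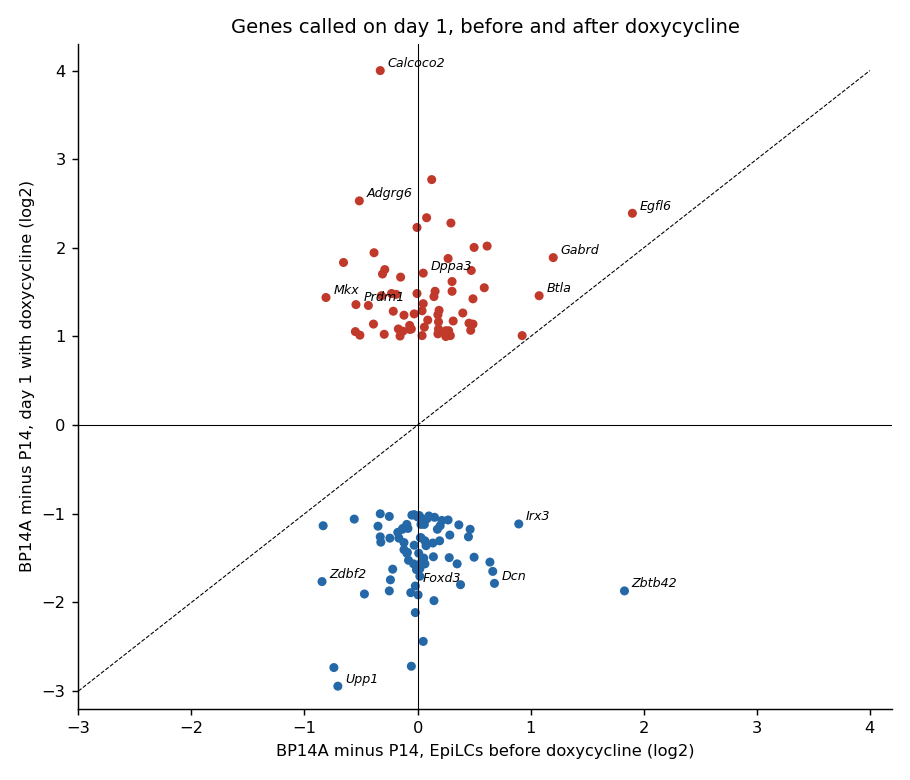
Difference between BP14A and P14 on day 1 with doxycycline (vertical axis, log2) against that in EpiLCs before doxycycline (horizontal axis, log2) for the 143 called genes, red where BP14A was higher and blue where it was lower on day 1, with a dashed line of equality. Most points stand near 0 on the horizontal axis, with Egfl6 at 1.90 and Zbtb42 at 1.83 to the right.

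The line with the Blimp1 transgene alone gives a second view of that transgene that shares no array with BP14A and P14. It is not a view of Blimp1 without Tfap2c, because Tfap2c differed by 3.26 between B and the parental line (limma adjusted p = 4.9e-08). The part of Tfap2c in the B contrast was not tested. Between B and the parental line on day 1, 194 genes were higher (1.39%) and 164 lower (1.17%). Of the 65 genes that rose in BP14A over P14, 19 were also higher in B than in the parental line (29.2% of the 65 and 9.79% of the 194) and 4 were lower (6.15% of the 65). Of the 78 that fell, 26 were also lower in B (33.3% of the 78 and 15.9% of the 164) and 0 were higher. Both contrasts take the spread of each gene from the same fit, so their calls are not independent. The median of B minus parental was 0.45 over the 65 genes and -0.48 over the 78, against 0.02 over all genes. Across the 14004 genes the Pearson correlation of the differences was 0.211, as a description over genes that are not independent. The Tfap2c line gave little to set beside this: A minus parental had 0 genes higher and 3 lower by limma (0.0214%), with 926 at an unadjusted p under 0.05, and a correlation of 0.006.

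Nrk, an X-linked kinase gene known from the placenta, was higher in both contrasts. It was at 8.72 and 9.20 in BP14A against 6.96 and 6.40 in P14, a difference of 2.28 (SE 0.21, limma adjusted p = 7.79e-05). In the B line Nrk was at 9.96 and 10.10 against 7.38 and 7.24 in the parental line, a difference of 2.72. Dppa3 differed by 1.72 between BP14A and P14 and by 2.68 between B and the parental line, Hesx1 by 1.67 and 1.38, Ackr3 by 1.37 and 2.09, and Tfcp2l1 by 1.14 and 2.04, in the same order of contrasts. On the falling side Foxd3 differed by -1.81 and -2.06, Fgf15 by -1.50 and -1.67, Otx2 by -1.14 and -1.49, and Dnmt3a by -1.44 and -2.18. For these 9 genes, picked from those called in both contrasts, the interaction was not called, which does not make the differences alike. Nor was it called for Wt1 and Sema6a, at -1.635 and -2.05 between B and the parental line. Among others called in both, Upp1 differed by -1.505 between B and the parental line (interaction -1.44, limma adjusted p = 0.0194). Pcdh8 differed there by -3.925 (interaction 2.685, limma adjusted p = 8.76e-05). Other genes had a difference between BP14A and P14 with less beside it in B. Dnmt3b was lower by 1.27 between BP14A and P14 and differed by -0.23 between B and the parental line (interaction -1.03, limma adjusted p = 0.00178). Slc2a1, Ramp2, Ugdh and Dcn differed by -0.11, 0.23, 0.01 and -0.06 between B and the parental line, and Hey1 by 0.02, with the interaction called for each.

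**Figure D5:**
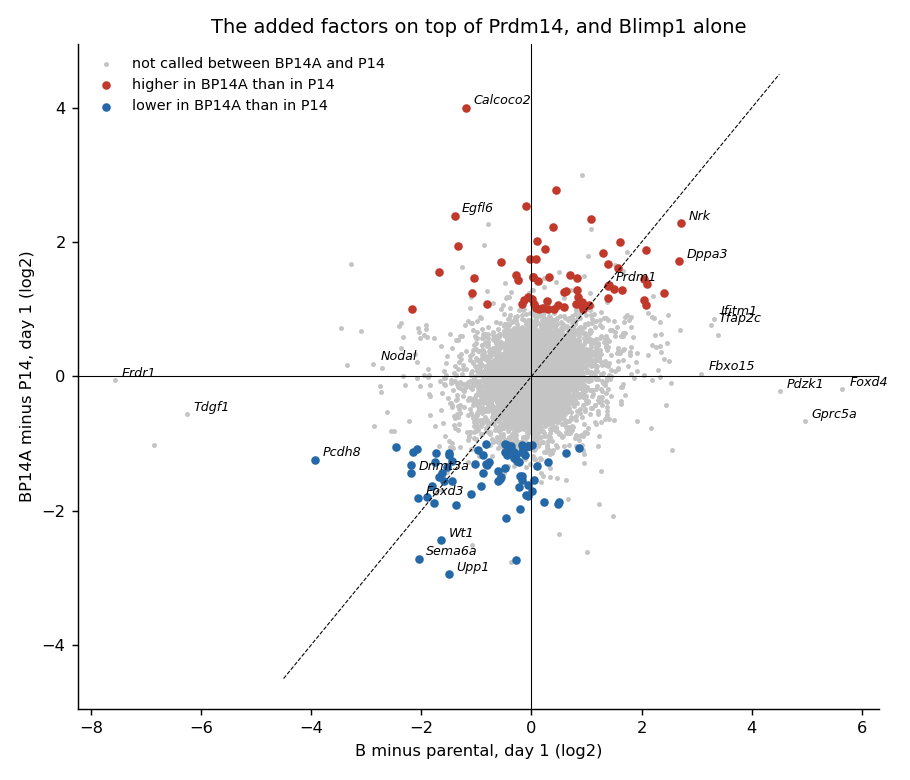
Difference between BP14A and P14 on day 1 (vertical axis, log2) against that between B and the parental line on day 1 (horizontal axis, log2) for each gene tested, red and blue where called between BP14A and P14, with a dashed line of equality. Nrk and Dppa3 lie high in both, Foxd3 and Dnmt3a low in both, while Foxd4 at 5.64 and Tdgf1 at -6.26 on the horizontal axis lie near 0 on the vertical one.

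The genes called for the B line were chosen by a difference of at least 1 in size between B and the parental line. Their medians in that contrast are large by this choice, so the smaller medians between BP14A and P14 cannot be read as a weaker effect. The 194 genes higher in B had a median of 0.34 between BP14A and P14, against 1.36 between B and the parental line; 152 of them were above 0, 19 were called higher and 0 lower. The 164 lower genes had a median of -0.28 between BP14A and P14, against -1.44 between B and the parental line; 112 were below 0, 26 were called lower and 4 higher. The interaction, which uses the B and parental arrays that chose these genes and so leans away from them, was called lower for 64 of the 194 and higher for 76 of the 164. Over all genes it was called higher for 135 (0.964%) and lower for 127 (0.907%). The count higher was 87 without the first parental array.

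Among the 10 genes with the largest rise in B over the parental line, named here by that rank, Foxd4, a forkhead gene, was at 9.63 and 9.81 in B against 4.06 and 4.09 in the parental line. It was at 4.87 and 5.23 in BP14A against 5.23 and 5.26 in P14, a difference of -0.19 (interaction -5.84, limma adjusted p = 3.31e-05). Gprc5a was at 7.20 and 6.99 in BP14A and 7.77 and 7.76 in P14, and at 8.72 and 8.87 in B against 3.74 and 3.93 in the parental line. Pdzk1 differed by -0.23 between BP14A and P14 and by 4.51 between B and the parental line. Fbxo15, an F-box gene of pluripotent cells, was at 9.75 and 9.78 in BP14A and 9.75 and 9.71 in P14, and at 9.68 and 10.01 in B against 6.75 and 6.78 in the parental line, so that it was high in the P14 line as well. The interferon-induced membrane protein gene Ifitm1, an early mark of germ cell precursors, differed by 0.86 between BP14A and P14, under the size limit, and by 3.31 between B and the parental line.

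Among the 10 largest falls in B, Tdgf1, the Nodal co-receptor also called Cripto, was at 5.87 and 5.87 in B against 12.18 and 12.08 in the parental line. In BP14A it was at 11.70 and 11.54 against 12.13 and 12.24 in P14, and in B EpiLCs, before doxycycline, at 12.41 and 12.46. The Tdgf1 interaction was 5.70 (limma adjusted p = 3.1e-11), and the BP14A arrays, with the Blimp1 transgene too, lay far above the B arrays. Nodal itself was at 8.81 and 8.63 in BP14A against 8.55 and 8.51 in P14, and at 7.30 and 7.68 in B against 10.51 and 10.22 in the parental line. Has2, a hyaluronan synthase, was low in BP14A, at 3.72 and 3.82, in P14, at 3.47 and 3.72, and in B, at 3.88 and 4.10, against 7.47 and 7.21 in the parental line. Erdr1 and Mid1 were low in B before doxycycline too, with Erdr1 at 4.75 and 4.40 in B EpiLCs against 12.83 and 12.71 in parental EpiLCs.

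Promoter windows of RefSeq (GRCm38.p6), 250 bases before to 50 after the start site, were searched on both strands for the letters GCCNNNGGC, bound by AP-2 proteins such as Tfap2c, AGNGAAAG, bound by Blimp1, and GGTCTCTAA, reported for Prdm14. Of the genes tested, 11235 had a window, among them 47 of the 65 that rose, 56 of the 78 that fell and 30 of the 51 genes named by rule. The AP-2 letters were in 11 of the 47 windows (23.4%) and 11 of the 56 (19.6%), against 2756 of all (24.5%). The Blimp1 letters were in 7 (14.9%) and 5 (8.93%), against 855 (7.61%), and the Prdm14 letters in 0 and 0, against 24 (0.214%). These shares are descriptions of letters, not of binding. The 4 windows below belong to genes described above and are shown because they hold such letters, in capitals, in genes that differed between the lines, read 5′ to 3′ on the gene's strand. They lie at chr1:118627695-118627994 (plus strand) for Tfcp2l1, chr11:9117758-9118057 (plus) for Upp1, chr12:3806730-3807029 (plus) for Dnmt3a and chr14:48667595-48667894 (minus) for Otx2. Capitals mark the AP-2 letters in Tfcp2l1, from base -231 relative to the start site, in Upp1, from base -139, and in Dnmt3a, from base -234. In Otx2 they mark the Blimp1 letters, read on the other strand, from base -238.
Tfcp2l1: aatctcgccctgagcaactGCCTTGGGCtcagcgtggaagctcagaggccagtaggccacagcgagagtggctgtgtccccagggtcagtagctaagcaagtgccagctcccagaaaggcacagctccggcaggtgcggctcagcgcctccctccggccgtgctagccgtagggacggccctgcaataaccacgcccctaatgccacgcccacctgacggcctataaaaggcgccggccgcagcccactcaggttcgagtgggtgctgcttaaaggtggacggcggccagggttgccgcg
Upp1: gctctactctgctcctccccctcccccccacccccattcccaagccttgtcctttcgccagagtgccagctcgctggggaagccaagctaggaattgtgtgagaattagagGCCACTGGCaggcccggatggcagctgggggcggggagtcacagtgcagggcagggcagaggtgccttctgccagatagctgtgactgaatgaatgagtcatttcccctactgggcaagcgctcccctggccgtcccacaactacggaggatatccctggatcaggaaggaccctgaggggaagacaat
Dnmt3a: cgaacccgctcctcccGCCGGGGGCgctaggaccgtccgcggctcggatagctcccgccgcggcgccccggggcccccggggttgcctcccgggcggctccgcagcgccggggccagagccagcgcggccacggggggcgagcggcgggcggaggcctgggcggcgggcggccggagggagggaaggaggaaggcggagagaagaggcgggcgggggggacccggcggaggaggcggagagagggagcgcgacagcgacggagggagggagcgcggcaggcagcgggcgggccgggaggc
Otx2: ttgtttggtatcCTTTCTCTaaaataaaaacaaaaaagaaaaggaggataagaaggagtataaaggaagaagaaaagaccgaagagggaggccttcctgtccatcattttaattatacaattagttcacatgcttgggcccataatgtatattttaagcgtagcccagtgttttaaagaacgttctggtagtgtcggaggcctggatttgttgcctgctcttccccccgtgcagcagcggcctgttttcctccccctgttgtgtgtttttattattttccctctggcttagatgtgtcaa
The AP-2 letters thus occur at a gene that rose (Tfcp2l1) and at genes that fell (Upp1, Dnmt3a). Of the 30 named genes with a window, 6 held the AP-2 letters, 4 the Blimp1 letters and 0 those of Prdm14.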

How the data were processed

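RNA of 20 arrays, 2 for each of 10 groups (5 lines at 2 stages), was labelled by a one-cycle protocol, per the labels. The table deposited by the authors holds log2 values, 1 per probe set and array, from 0 to 13.83; the base was inferred from that range. How they were normalized and summarised, and with which software, was not given in the sources used here; values were used as deposited.

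The platform annotation gave 1 gene for 34945 of 45101 probe sets, several for 932 and none for 9160, apart from 64 control probe sets left out. Entrez identifiers of 34741 matched RefSeq (GRCm38.p6), and 0 symbols changed. Probe sets whose highest group mean reached 3.95, the 40th percentile, were kept, and each gene was read from its brightest probe set over the 20 arrays. Of 14010 genes, 6 Y-linked ones were left out. With limma 3.58.1 (R 4.3.3), 1 model of the 10 group means over the 20 arrays gave a shared spread (10 residual and 1.79 prior degrees of freedom). P values are two-sided. Errors given as SE are limma standard errors. Python 3.11.15 and pandas 2.3.3 handled the tables, and the fit was tested on simulated data. The p-values measure the spread between duplicates, pooled over all 10 groups. They do not cover the spread between clones that carry the same transgenes.

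Named genes are the 15 largest called differences in each direction, called members of 32 gene lists, up to 4 further members of a list with the largest differences, and the 3 factors; genes of the B contrast were named by their rank there. Members and lists were chosen with earlier results of these data known. The alternatives were no filter on low values, the mean of a gene's probe sets, centring on the median, quantile normalization, the 4 arrays alone, a replicate block, an intensity trend, a test against a log2 difference of 0.5 (treat), Y-linked genes kept, and each array left out in turn.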

Additional observations from a re-analysis of the deposited data

Results flagged for a closer look

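The difference between BP14A and P14 departed from its EpiLC value on day 1, by the interaction term of the limma fit, upward for 49 genes and downward for 74. It departed from the difference between B and the parental line on day 1, by the second interaction term, upward for 135 genes and downward for 127.

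In 4 genes, chosen after their values were seen, both contrasts were called with opposite signs, higher in BP14A than in P14 and lower in B than in the parental line. Egfl6 had an interaction of 3.79 (limma adjusted p = 0.00228), with means of 4.86 in BP14A and 2.47 in P14, and of 3.12 in B and 4.51 in the parental line. The intermediate filament gene Nefm had an interaction of 3.17 (limma adjusted p = 1.95e-06), with 6.34 in BP14A and 5.34 in P14, and 6.56 in B and 8.73 in the parental line. The ubiquitin ligase family gene Trim67 had an interaction of 3.23 (limma adjusted p = 2.32e-07), with 5.21 in BP14A and 3.66 in P14, and 4.40 in B and 6.09 in the parental line. The cell cycle regulator gene Rgcc had an interaction of 2.33 (limma adjusted p = 0.00654), with 5.40 in BP14A and 4.16 in P14, and 3.48 in B and 4.57 in the parental line. For Egfl6, Nefm and Trim67 the P14 mean was the lowest of these 4 groups.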

How the results depend on the processing

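Between BP14A and P14 on day 1, the counts of genes higher and lower, 65 and 78, stayed within 1.5 times under no filter, the mean of probe sets, the replicate block, median centring, quantile normalization, the intensity trend and Y-linked genes kept. The replicate block gave 63 and 86 and median centring 55 and 95. They were 0 and 0 with the 4 arrays alone (limma, lowest adjusted p 0.11, 2124 genes at an unadjusted p under 0.05), a fit with fewer residual degrees of freedom, and 17 and 31 by treat. With 1 array left out they were 35 to 70 and 63 to 111. Arrays left out in turn gave 0 to 1 and 0 to 4 for the EpiLC contrast, 18 to 48 and 47 to 92 for its interaction with stage, 87 to 147 and 86 to 124 for the interaction with B, 153 to 214 and 142 to 190 for B minus parental, and 0 to 9 and 1 to 3 for A minus parental; the lone array is then assumed to vary like the other groups. The EpiLC count higher was 2 with the replicate block. A minus parental had 1 gene higher without the filter and 1 lower with the mean of probe sets. Prdm14, which did not pass, was between -0.11 (without the second BP14A day 1 array) and 1.17 (without the first). Of the 49 called named genes, 0 kept the call with the 4 arrays alone, 21 lost it by treat, 4 with the mean of probe sets, 3 without the filter, 1 with the trend and 0 with the replicate block, median centring or quantile normalization. Labels give both lines replicate numbers 1 and 2 and no shared origin; same-numbered deviations correlated at -0.019 between BP14A and P14 on day 1, and at -0.065 to 0.196 over 45 pairs of groups. Except where said, the cause of a change was not tested. Dim genes, with means below 3.95, have approximate sizes.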

Other observations

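Further genes called between BP14A and P14 on day 1, picked after their values were seen, give the range of what else differed. Car12, a membrane carbonic anhydrase, had a mean of 7.24 in BP14A against 5.54 in P14 and 3.76 in the parental line, a difference of 1.71 between BP14A and P14 (limma adjusted p = 0.0011). Hpgd, which breaks down prostaglandins, was at 8.06 in BP14A against 6.55 in P14 and 4.66 in the parental line, and rose by 1.51 (limma adjusted p = 0.000889). Rbm46, an RNA-binding protein gene needed for meiosis in mice, rose by 1.14 (limma adjusted p = 0.00318), with 4.74 in BP14A against 3.60 in P14. The surface antigen gene Cd24a was at 11.73 in BP14A against 10.46 in P14 and 12.06 in the parental line. Mbp, myelin basic protein, rose by 1.06 between BP14A and P14 and differed by 2.08 between B and the parental line.

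Among the genes that fell, the neuronal bHLH gene Neurod1 was at 4.91 in BP14A against 6.39 in P14 and 6.38 in the parental line, a difference of -1.49 (limma adjusted p = 0.00323). The gap junction gene Gja1 was at 9.30 in BP14A, 10.43 in P14 and 12.72 in the parental line, and fell by 1.12 between BP14A and P14 (limma adjusted p = 0.000206). Msi1, an RNA-binding protein of neural progenitors, fell by 1.02 (limma adjusted p = 7.97e-06). Efnb2, an ephrin, fell by 1.26 (limma adjusted p = 0.0011) and differed by -1.45 between B and the parental line. The purine gene Ampd3 fell by 1.26 and the nucleotide precursor gene Prps2 by 1.31, both in BP14A relative to P14. Cbr3, a carbonyl reductase, fell by 1.53 (limma adjusted p = 3.26e-06).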
